A study of Rattus with 6 samples.

Results

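Hba-a2 and Hba-a3 are near-identical rat genes for the alpha chain of haemoglobin, and both had rows in an exon-level RNA sequencing table of RC-4B/C, an established rat pituitary adenoma cell line. They were taken by their symbols, which gave 2 of 12801 genes and 4 of 118147 exon rows. They had been picked because their levels differed between the treatment groups, so that difference is described here without a test. Of the 6 libraries, 3 were labelled ASA (acetylsalicylic acid, aspirin, an inhibitor of the cyclooxygenases) and 3 DMSO (dimethyl sulfoxide, the solvent control). All were polyadenylated RNA of this one line, and the labels used here give neither dose nor duration. Whether libraries of the same treatment were grown as separate cultures is likewise not given, so p-values reflect only how these libraries vary, which may be technical variation. The replicate numbers used here follow the order of the libraries within each group and pair no ASA library with a DMSO library.

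Haemoglobin carries oxygen in red blood cells and is built from alpha-type and beta-type globin chains, each holding a haem group with an iron atom. Alpha-globin genes are transcribed at very high levels in erythroid precursors under the control of factors such as GATA1 and KLF1, from enhancers that lie in the introns of the neighbouring gene Nprl3. Low levels of globin transcripts have also been described in cells outside the blood, neurons and several epithelia among them.

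In the Rnor_6.0 coordinates of the table, both genes lie on the minus strand of chromosome 10. Hba-a3 (ENSRNOG00000045989) had 3 exon rows, from 5′ to 3′ at 15577883 to 15577977 (95 bases), 15577563 to 15577767 (205 bases) and 15577252 to 15577377 (126 bases). Together these hold 426 bases, a whole number of codons (142). Hba-a2 (ENSRNOG00000047321) had 1 exon row, at 15589449 to 15589574, which has the same 126 bases of length as the last exon of Hba-a3. The gap between the listed exons of the copies is 11471 bases and no other listed gene lies in it. RefSeq's gene table for another assembly, GRCr8, places Hbq1b, a further copy named Hba-a1, and Hbz between Hba-a2 and Nprl3, and gives Hba-a1 as an older symbol of both Hba-a2 and Hba-a3. Reads of such copies can be assigned to either of them, so the separate values are uncertain and the sum of both is the main value here. Levels are RPKM, the reads per 1000000 divided by the length of the listed exons in kilobases, so the Hba-a2 value rests on its last exon alone.

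Reads in listed exons, recovered from the table, numbered 66492446 to 94486062 per library. ASA replicate 2 stood apart with 497 exons at 0 reads, against 4 to 13 in the other libraries. DMSO replicate 2 lay between the groups in proliferation genes. Its median over 19 listed genes of the G2/M phases lay -1.08 from the DMSO mean on the log2 scale. The other DMSO libraries were at 0.76 and 0.35, and the ASA libraries at -2.59 to -2.25. Of 21 pituitary markers 14 had rows, with prolactin (Prl) at 14037 to 62170 RPKM and its transcription factor Pou1f1 at 584 to 804, so the transcripts of the labelled cell type were present. No exon row had fewer than 4 libraries above 10 reads, so a transcript read in the DMSO libraries alone may have no row.

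Alpha-globin RNA was present in solvent-treated cells and low in aspirin-treated ones. Hba-a3 had 6.12, 13.0 and 4.004 RPKM in ASA replicates 1, 2 and 3. It had 56.9, 279 and 118 RPKM in DMSO replicates 1, 2 and 3. The groups did not overlap, and the lowest DMSO value was 4.38 times the highest ASA value. Hba-a2 was at 1.47, 2.86 and 0.182 RPKM in ASA replicates 1, 2 and 3, and at 16.7, 40.7 and 37.5 RPKM in DMSO replicates 1, 2 and 3. Here too the groups did not overlap, with a ratio of 5.84 between the lowest DMSO and the highest ASA value. Both members thus lay lower in every ASA library, as did 18.8% of all 12502 genes tested, and since the members were chosen on this contrast nothing is read from the count.

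The summed alpha-globin level was 7.58, 15.9 and 4.19 RPKM in ASA replicates 1, 2 and 3 and 73.7, 319 and 155 RPKM in DMSO replicates 1, 2 and 3. The group means were 9.21 ± 6.003 RPKM in ASA and 183 ± 125 RPKM in DMSO libraries (SD, n = 3 each). On the scale of log2(RPKM + 0.1), where the added 0.1 understates changes of low genes, the ASA mean was 3.01 ± 0.95 and the DMSO mean 7.27 ± 1.06 (SD), a difference of -4.26, or 19.1-fold. From the highest to the lowest, the libraries ran DMSO replicates 2, 3 and 1, then ASA replicates 2, 1 and 3. Neighbouring libraries within a group differed by about as much as the SD of that group, whereas the step from DMSO replicate 1 to ASA replicate 2 was 4.65-fold. In bulk RNA, fewer cells with the transcript and less transcript per cell cannot be told apart.

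Taken alone, Hba-a3 was 17.8-fold lower and Hba-a2 27.0-fold lower in ASA libraries, the fifth and the second lowest log2 differences of the 12502 genes. Single libraries carried part of these values. Hba-a3 was 11.8-fold lower without DMSO replicate 2, and Hba-a2 was 13.7-fold lower without ASA replicate 3 and 44.5-fold lower without ASA replicate 2. The Hba-a2 value in ASA replicate 3 rested on 2 reads (exact 95% Poisson interval 0.242 to 7.22 reads), against 17 and 24 reads in ASA replicates 1 and 2 and 199, 421 and 434 in the DMSO libraries. With 1 added in place of 0.1, Hba-a2 was 13.6-fold lower.

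The level in control cells was moderate to high. Hba-a3 ranked 485 among the 12801 genes in DMSO replicate 2, 1444 in DMSO replicate 3 and 3161 in DMSO replicate 1. In the ASA libraries its rank was 7174 to 10496. Hba-a2 ranked 4013 to 7247 in DMSO and 10304 to 12712 in ASA libraries. Hba-a3 varied widely among libraries given the same treatment. Its SD over the DMSO libraries was 1.15 on the log2 scale, above that of 99.4% of tested genes, whose median was 0.18. For Hba-a2 the DMSO SD was 0.71, above that of 94.8%. In the ASA libraries the SD was 0.85 for Hba-a3 and 1.76 for Hba-a2, with a median over genes of 0.41.

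**Figure D1:**
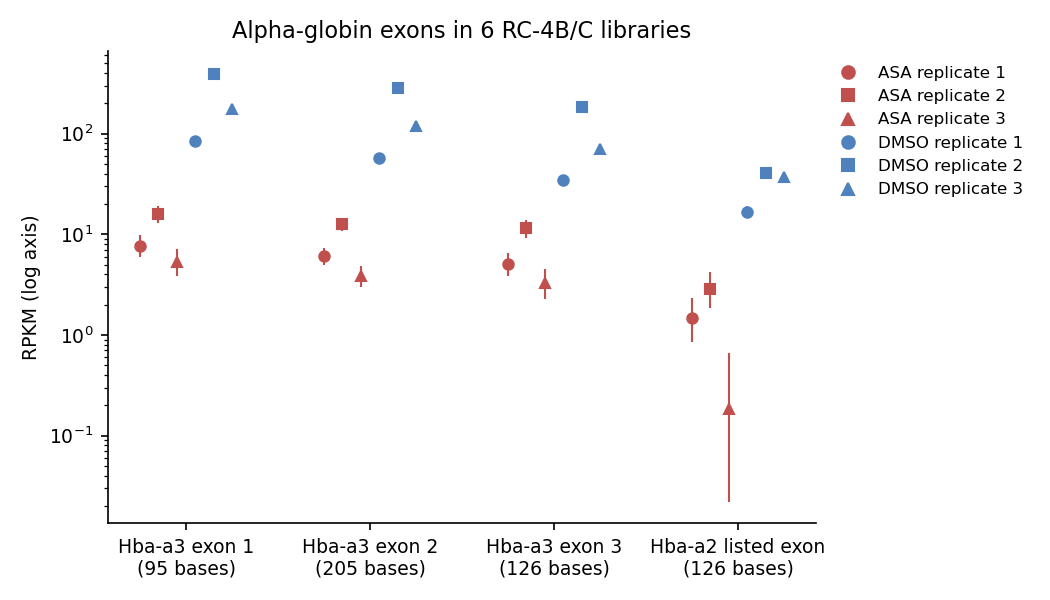
RPKM (log axis) of each listed alpha-globin exon in 3 ASA (red) and 3 DMSO (blue) libraries, with exact 95% Poisson intervals that cover counting error only. In all 4 exons every DMSO library lies above every ASA library, and DMSO replicate 2 is the highest.

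The 3 exons of Hba-a3 differed in how far apart the groups lay. The first exon had 7.66, 15.8 and 5.30 RPKM in ASA replicates 1, 2 and 3, and 85.4, 394 and 176 RPKM in DMSO replicates 1, 2 and 3. This was 20.7-fold lower in ASA. The second exon was 18.5-fold lower, with means of 7.504 ± 4.56 RPKM in ASA and 153 ± 116 RPKM in DMSO libraries (SD, n = 3 each). The third exon had 5.09, 11.5 and 3.27 RPKM in ASA replicates 1, 2 and 3, and 34.7, 185 and 71.1 RPKM in DMSO replicates 1, 2 and 3. It was 13.1-fold lower.

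The balance of reads within Hba-a3 therefore differed between the groups. The last exon took 24.6%, 26.1% and 24.2% of its reads in ASA replicates 1, 2 and 3. In DMSO replicates 1, 2 and 3 it took 18.02%, 19.6% and 17.8%. The groups did not overlap in this share, with means of 24.9% ± 1.01 and 18.5% ± 1.001 (SD, n = 3 each), though the ASA shares rest on only 149 to 368 reads. The exact 95% binomial interval (Clopper-Pearson) of ASA replicate 3, 17.5% to 31.8%, overlaps those of all DMSO libraries, and that of ASA replicate 1, 19.3% to 30.5%, overlaps those of DMSO replicates 1 and 2. That of ASA replicate 2, 21.7% to 30.9%, overlaps none. Reads amplified by PCR are not independent molecules, so these intervals cover counting error only. The first exon went the other way, with 27.2% to 29.5% of reads in ASA and 31.5% to 33.5% in DMSO libraries. So did the second by a smaller margin, with 46.3% to 47.5% in ASA and 48.5% to 48.9% in DMSO libraries.

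Coverage along other genes gives the background for that shift. Per base, the first exon of Hba-a3 had 1.51, 1.38 and 1.62 times the reads of the last in ASA replicates 1, 2 and 3, and 2.46, 2.13 and 2.47 times in DMSO replicates 1, 2 and 3. The mean log2 ratio was 0.65 smaller in ASA. Over 7946 genes with at least 3 listed exons and at least 20 reads in both end exons of every library, the median of this difference was -0.04 and its central 90% ran from -0.76 to 0.68. Hba-a3 stood at the 7.84th percentile, inside that range.

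**Figure D2:**
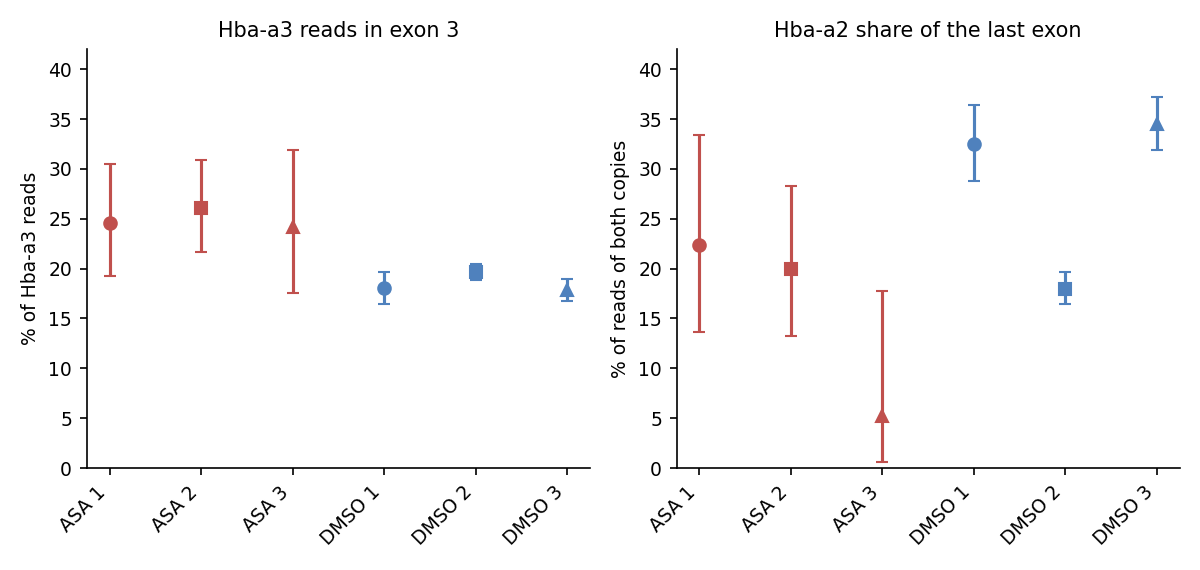
Left, percent of Hba-a3 reads in the third exon. Right, Hba-a2 reads as a percent of the reads of both copies in the 126-base last exon. Points are libraries (ASA red, DMSO blue) and bars are exact 95% binomial intervals. The left shares are 24.2% to 26.1% in ASA and 17.8% to 19.6% in DMSO libraries, and on the right DMSO replicate 2 and the ASA libraries lie below DMSO replicates 1 and 3.

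The copies kept no fixed ratio. In the 126-base last exon, the only one listed for both, Hba-a2 held 32.5% and 34.5% of the reads of both copies in DMSO replicates 1 and 3 but 18.01% in DMSO replicate 2. The exact 95% interval of DMSO replicate 2, 16.5% to 19.6%, lies below those of DMSO replicates 1 (28.8% to 36.4%) and 3 (31.9% to 37.2%). In this exon DMSO replicates 2 and 3 differed in Hba-a3 reads, 1917 against 824, and hardly in Hba-a2 reads, 421 against 434. In ASA replicates 1, 2 and 3 the Hba-a2 share was 22.4%, 20% and 5.26%. The ASA intervals reach from 0.644% to 33.4% and overlap that of DMSO replicate 2, and the interval of ASA replicate 1, 13.6% to 33.4%, also overlaps those of DMSO replicates 1 and 3. Over all listed exons Hba-a2 held 1.32% to 6.61% of alpha-globin reads in ASA and 4.14% to 8.58% in DMSO libraries, lower because 3 exons of Hba-a3 enter and 1 of Hba-a2. All 24 exon values were whole reads within 0.02 read, so none of these reads had been divided between features.

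Other globin genes were sought in a list of 18 symbols that covers the beta chains (Hbb), the embryonic chains (Hbz, Hbe1), the theta chains (Hbq1, Hbq1b), and myoglobin, neuroglobin and cytoglobin. None had a row in the table. Because of the reads seen in every row, this sets no limit on their level in the DMSO libraries.

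Few genes that mark red blood cell precursors were listed. Of 27 erythroid markers 10 had rows, and those without one include Alas2, the erythroid enzyme that starts haem synthesis, Ahsp, the chaperone of alpha-globin, the membrane protein Slc4a1, and the factor Gata1. The summed level of the 10 was 128 to 144 RPKM in ASA and 170 to 197 RPKM in DMSO libraries, and its part in the alpha-globin difference was not tested. Without Car2 the other 9 summed to 96.1 to 112 RPKM in ASA and 97.6 to 102 RPKM in DMSO libraries. By limma's test across the 12502 genes, with a Benjamini-Hochberg adjusted p under 0.05 as the threshold, 2 of the 10 fell and none rose, with a median log2 difference of 0.20 and positive differences in 7 of the 10. For comparison, 11.2% of all genes passed, 4.99% lower and 6.21% higher in ASA, with a median of -0.06. None of the 12502 genes passed without ASA replicate 3 or without DMSO replicate 3, and 91 passed without DMSO replicate 1. A call lost without ASA replicate 3 or DMSO replicate 3 is therefore no trait of the gene concerned.

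The erythroid markers that fell were Rhag and Car2. Rhag, a membrane channel that carries ammonia and holds the Rh complex in red cells, had 4.55, 3.83 and 3.13 RPKM in ASA replicates 1, 2 and 3 and 17.97, 8.02 and 8.71 RPKM in DMSO replicates 1, 2 and 3. The groups did not overlap, and the fall was 2.80-fold (limma, adjusted p = 0.0451). Car2, a carbonic anhydrase of red cells and many other tissues, went from 80.5 ± 16.9 to 31.7 ± 9.75 RPKM (SD, n = 3 each), 2.58-fold (limma, adjusted p = 0.0284). Rhd, the partner of Rhag, had a log2 difference of -0.84 ± 0.33 (SE) that missed the threshold (limma, adjusted p = 0.14) and passed without ASA replicate 2 (limma, adjusted p 0.0138 to 0.371 over the fits without single libraries). Neither Rhag nor Car2 passed without ASA replicate 3 or without any single DMSO library (adjusted p 0.0403 to 0.156 and 0.0111 to 0.143 over the 6 limma fits without 1 library each).

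The remaining erythroid markers did not pass the test. Klf1, Tfr2 and Xk lay higher in every ASA library, and Rhd, like Rhag and Car2, lay lower in every one. These are 3 of 10 markers in each direction, against 19.9% of all genes higher and 18.8% lower. Klf1, the erythroid activator of globin genes, had 1.07, 0.808 and 1.79 RPKM in ASA replicates 1, 2 and 3, and 0.547, 0.629 and 0.518 in DMSO replicates 1, 2 and 3. The log2 difference was 0.93 ± 0.41 (SE, limma adjusted p = 0.177). Xk, a membrane protein of red cells, had 6.47 to 8.34 RPKM in ASA and 4.53 to 4.91 RPKM in DMSO libraries, and Tfr2, the second transferrin receptor, 2.42 to 4.37 against 1.22 to 2.17 RPKM. Epor, the erythropoietin receptor, and Ank1, the erythroid ankyrin, lay between 0.573 and 1.36 RPKM in all 6 libraries. Tfr2, Xk, Epb41 and Bpgm had log2 differences of 0.89, 0.58, 0.23 and 0.17, with adjusted p of 0.16, 0.177, 0.465 and 0.539 in limma.

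Some markers of other cells also passed the test, beside shares of 6.21% higher and 4.99% lower in ASA over all genes. Of 11 myeloid markers 4 had rows and 2 rose (Cd68 and Itgax), and the list summed to 73.7 to 244 RPKM in ASA and 25.5 to 40.3 RPKM in DMSO libraries. Without Cd68 the sum of the other 3 was 33.9 to 46.2 against 22.8 to 37.8 RPKM, and Cd14 had a log2 difference of -1.41 and Fcer1g one of 0.58 (limma, adjusted p = 0.165 and 0.282). Those without a row include Ptprc, Csf1r and Aif1. Of 9 endothelial, fibroblast and folliculostellate markers only Pdgfrb had a row, and it rose 3.89-fold (limma, adjusted p = 0.0372), from 0.878 to 2.39 RPKM in DMSO to 4.66 to 9.04 RPKM in ASA libraries. Of the 14 pituitary markers 2 fell (Cga and Esr1), with a median log2 difference of -0.39, and their sum was 21854 to 65497 RPKM in ASA and 28225 to 68253 RPKM in DMSO libraries. None of these 5 genes passed without ASA replicate 3 or DMSO replicate 3, and without DMSO replicate 1 only Itgax did. Pdgfrb passed only without ASA replicate 2. The part of these shifts in the alpha-globin values was not tested.

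Most genes of haem synthesis, which supplies the cofactor of globin, lay near 0 in their log2 difference. Of 17 tested genes 1 rose and none fell, with a median log2 difference of 0.01 (-0.16 without ASA replicate 1 to 0.10 without ASA replicate 2), against the 11.2% called and the median of -0.06 over all genes. The gene that rose was Slc25a37, mitoferrin 1, which brings iron into mitochondria and is best known from erythroid cells. It had 28.1, 36.0 and 32.4 RPKM in ASA replicates 1, 2 and 3 and 4.31, 5.34 and 4.42 RPKM in DMSO replicates 1, 2 and 3. This 6.73-fold rise (log2 difference 2.75 ± 0.23 SE, limma, adjusted p = 0.00906) ran opposite to alpha-globin in the same libraries. It was lost only without ASA replicate 3 (adjusted p = 0.0803) or DMSO replicate 3 (adjusted p = 0.079) among the 6 limma fits without 1 library each. In those fits none of the 12502 genes passed.

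The enzymes of the pathway varied less. Alas1, the housekeeping enzyme of its first step, averaged 66.3 ± 26.3 RPKM in ASA and 68.6 ± 6.23 RPKM in DMSO libraries (SD, n = 3 each), a log2 difference of -0.12 ± 0.29 (SE). Urod, an enzyme of the middle steps, had a log2 difference of -0.44 ± 0.19 (SE) that missed the threshold (limma, adjusted p = 0.157). Fech, which inserts the iron, had -0.10 ± 0.24 (adjusted p = 0.797 in limma). Glrx5, needed for the iron-sulfur clusters on which the pathway depends, had -0.83 ± 0.34 (adjusted p = 0.145 in limma).

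Among genes that move or break down haem and iron, 3 of 22 tested (13.6%, against 11.2% of all genes) rose and none fell. The median log2 difference was 0.41, which became 0.07 with ASA replicate 2 left out and 0.25 with DMSO replicate 3 left out. Slc48a1, a transporter that releases haem from lysosomes, had 253, 418 and 197 RPKM in ASA replicates 1, 2 and 3 and 95.16, 95.002 and 84.86 RPKM in DMSO replicates 1, 2 and 3, a rise of 3.01-fold (limma, adjusted p = 0.0206). Steap3, the endosomal reductase of transferrin iron, rose 2.60-fold (48.1 ± 13.4 against 18.1 ± 1.52 RPKM, SD, limma adjusted p = 0.0209). Cp, ceruloplasmin, an oxidase of exported iron, rose 2.82-fold from a low level (0.905 ± 0.116 to 2.78 ± 0.73 RPKM, SD, limma adjusted p = 0.038). None of the list passed when ASA replicate 3 was left out, or DMSO replicate 1 or 3. Without DMSO replicate 2, Slc48a1 alone of these 3 passed, and Cp also missed without ASA replicate 1. Without ASA replicate 2, 5 of the 22 rose, while those that rose among all 12502 genes went from 776 to 1608. Without both libraries numbered 2, 7 of the 22 rose and 1 fell, beside 1734 that rose and 1419 that fell among all 12502 genes.

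Hmox1, the inducible haem oxygenase, had 1351, 265 and 609 RPKM in ASA replicates 1, 2 and 3 and 245, 265 and 226 RPKM in DMSO replicates 1, 2 and 3. ASA replicate 2 lay at the level of the DMSO libraries, and the log2 difference of 1.30 ± 0.52 (SE) missed the threshold (limma, adjusted p = 0.139). Leaving out ASA replicate 2 brought it past the threshold, with a limma adjusted p of 0.0148 to 0.327 over the fits without single libraries. Ncoa4, the receptor that delivers ferritin to lysosomes, had a log2 difference of 0.76 ± 0.21 (SE, adjusted p = 0.0551 in limma), and passed without ASA replicate 1 or ASA replicate 2 (limma adjusted p 0.0229 to 0.214 over the fits without single libraries). Tfrc, the transferrin receptor that feeds iron to erythroid precursors, had 42.5, 34.1 and 36.3 RPKM in ASA replicates 1, 2 and 3 and 101, 39.2 and 71.1 RPKM in DMSO replicates 1, 2 and 3, with its lowest DMSO value in the library where alpha-globin was highest. The log2 difference of -0.80 ± 0.33 (SE) missed the threshold (limma, adjusted p = 0.154) and passed, lower, without DMSO replicate 2 (adjusted p 0.0495 to 0.422 over the limma fits without single libraries).

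Of the factors known to act at globin genes, 18 of 26 had rows and 17 were tested. None fell and 2 rose, 11.8% against 11.2% of all genes. The median log2 difference was 0.03, and -0.06 to 0.35 over the fits without single libraries, lowest without ASA replicate 3 and highest without ASA replicate 2. Mafg, a small Maf protein that pairs with NF-E2 subunits at globin enhancers, rose 1.84-fold (64.9 ± 4.92 against 35.3 ± 3.22 RPKM, SD, n = 3 each, limma adjusted p = 0.0272). Nfe2l1, an activator of the same family, rose 1.75-fold (330 ± 5.95 against 190 ± 28.996 RPKM, SD, limma adjusted p = 0.0332). Neither passed when ASA replicate 3, or DMSO replicate 1 or 3, was left out (adjusted p up to 0.156 and 0.185 in limma), and no factor passed when the median exon stood for the gene. Ldb1, the adaptor that bridges enhancer and globin promoter, had 134 to 143 RPKM in ASA and 188 to 225 RPKM in DMSO libraries, a log2 difference of -0.56 ± 0.16 (SE) that missed the threshold (limma, adjusted p = 0.0619). It passed, lower, without ASA replicate 2 (adjusted p 0.0313 to 0.248 over the limma fits without single libraries). Zfpm1, the GATA cofactor FOG1, had a log2 difference of 1.04 ± 0.37 (SE, limma adjusted p = 0.109, and 0.0472 to 0.32 over the fits without single libraries, passing only without ASA replicate 1). Gata1, Gata2, Tal1 and Bcl11a had no row, and Nfe2, at 0.15 to 0.281 RPKM, was under the level tested.

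**Figure D3:**
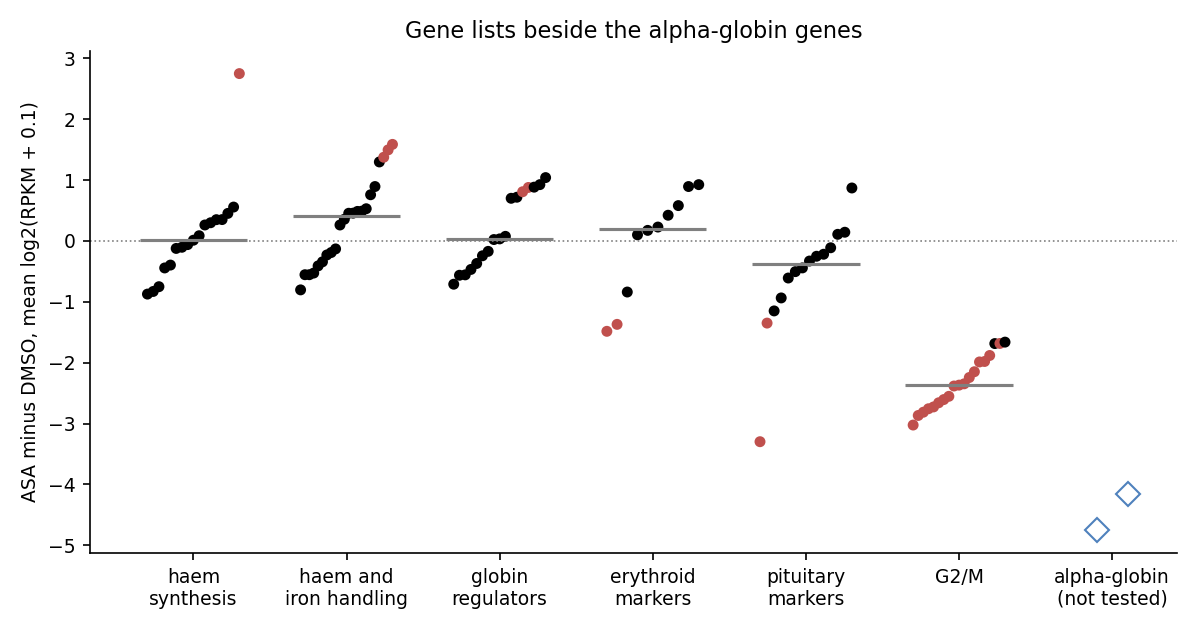
ASA minus DMSO difference of mean log2(RPKM + 0.1) for each tested gene of 6 lists, with the list median as a grey line and genes past an adjusted p of 0.05 in red. The medians are 0.01 for haem synthesis, 0.41 for haem and iron handling, 0.03 for globin regulators, 0.20 for erythroid markers, -0.39 for pituitary markers and -2.37 for G2/M genes. Open diamonds are Hba-a2 (-4.75) and Hba-a3 (-4.15), which were not tested.

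The genes around the alpha-globin pair were set beside all tested genes. Of the 10 nearest listed genes on each side, 1 of 20 rose and none fell (limma), a share of 5% against 11.2% of all genes, and their log2 differences ran from -0.66 to 1.52 with a median of 0.14 (0.10 to 0.31 over the fits without single libraries, highest without DMSO replicate 2). None lay lower in every ASA library, against 18.8% of all genes, and 5 lay higher in every one, against 19.9% of all genes. With 20 genes such shares are coarse, so nothing is read from these counts. The gene that rose was Tmem8a, 82.9 kilobases from Hba-a3, with 18.1, 16.4 and 14.8 RPKM in ASA replicates 1, 2 and 3 and 8.92, 8.46 and 8.72 RPKM in DMSO replicates 1, 2 and 3 (1.87-fold, limma adjusted p = 0.0407). Among the 6 limma fits without 1 library each it passed only without ASA replicate 2 (adjusted p 0.0207 to 0.195).

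The flanking genes are broadly expressed ones. Luc7l, a splicing factor gene whose listed exons end 8.82 kilobases from Hba-a3, had 50.5, 83.2 and 94.8 RPKM in ASA replicates 1, 2 and 3 and 51.0, 51.3 and 48.1 RPKM in DMSO replicates 1, 2 and 3 (log2 difference 0.55 ± 0.25 SE, limma adjusted p = 0.187). It passed without ASA replicate 1 (limma, adjusted p 0.0302 to 0.425 over the fits without single libraries). Nprl3, a subunit of an amino acid sensing complex, begins 31.4 kilobases from Hba-a2 and holds the globin enhancers in mammals. It had 16.01, 13.2 and 9.81 RPKM in ASA replicates 1, 2 and 3 and 12.5, 15.8 and 13.0 RPKM in DMSO replicates 1, 2 and 3. Those groups overlapped, with a log2 difference of -0.10 ± 0.26 (SE, limma adjusted p = 0.815). Mpg, a DNA glycosylase gene, and Rhbdf1 and Snrnp25 beyond it had log2 differences of -0.28 ± 0.27, 0.44 ± 0.24 and 0.13 ± 0.26 (SE). The lowest of the 20 was Nsg2 at -0.66 ± 0.27 (SE, limma adjusted p = 0.154), which passed only without ASA replicate 2 (adjusted p 0.0173 to 0.351 over the 6 limma fits without 1 library each).

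**Figure D4:**
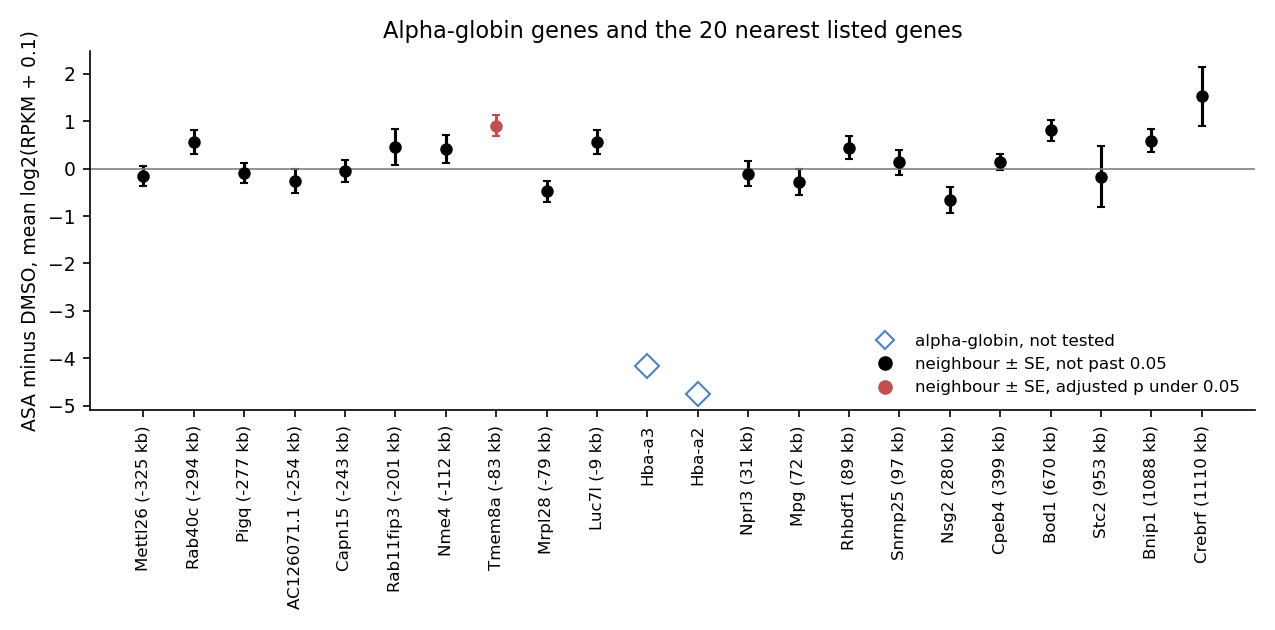
ASA minus DMSO difference of mean log2(RPKM + 0.1) for Hba-a3 and Hba-a2 (open diamonds, no test) and the 10 nearest listed genes on each side, in chromosomal order with the distance in kilobases. Bars are standard errors. The neighbours lie between -0.66 (Nsg2) and 1.52 (Crebrf) and only Tmem8a (red) passed the threshold, while the alpha-globin genes lie at -4.15 and -4.75.

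Some genes followed alpha-globin across the 6 libraries. Likeness was measured against the summed alpha-globin value over these 6 libraries among 11054 genes of at least 1 RPKM, as a description, since all the libraries carry the same group difference. By the root mean square difference of centred log2 profiles, Bhlhe23 was closest (0.35 log2 units, Pearson r 0.99). Bhlhe23, a basic helix-loop-helix transcription factor, had 1.136, 1.71 and 0.856 RPKM in ASA replicates 1, 2 and 3 and 12.9, 38.1 and 18.97 RPKM in DMSO replicates 1, 2 and 3. It held the same order of libraries as alpha-globin, both between and within the groups.

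Next came Gal, the neuropeptide galanin (0.68, r 0.98), Rgs5, a regulator of G protein signalling (0.68, r 0.97), and Cox4i2, an isoform of a cytochrome oxidase subunit (0.75, r 0.97). Gal had 1.52, 8.13 and 3.08 RPKM in ASA replicates 1, 2 and 3 and 34.6, 296 and 96.5 RPKM in DMSO replicates 1, 2 and 3. Hba-a2 and Hba-a3 were themselves 0.76 apart (r 0.96). That distance cannot be ranked against the one of Bhlhe23, which was picked as the closest of 11054 genes and was measured from the sum. The highest r belonged to Gpi, a glycolytic isomerase (0.997), Plaat3, Ednra, Galnt18, Rnd2 and Bhlhe23, at 0.991 to 0.997, each with a smaller range over the libraries than alpha-globin. Gpi, for instance, had 304, 452 and 270 RPKM in ASA replicates 1, 2 and 3 and 831, 1382 and 1152 RPKM in DMSO replicates 1, 2 and 3.

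Proliferation genes were also lower in ASA libraries but ordered the DMSO libraries the other way. Of 19 tested G2/M genes 17 fell (89.5%, against 4.99% of all genes) and none rose (limma), with a median log2 difference of -2.37. None of them passed when ASA replicate 3, or DMSO replicate 1 or 3, was left out. Without ASA replicate 3 or DMSO replicate 3 no gene of any kind passed. Mki67, the proliferation marker, had 55.7, 16.4 and 44.8 RPKM in DMSO replicates 1, 2 and 3, so that DMSO replicate 2, the highest library for alpha-globin (319 RPKM), was the lowest DMSO library for Mki67, as it was for all 19 genes of the list. In ASA replicates 1, 2 and 3 Mki67 had 7.92, 2.58 and 6.50 RPKM. In ASA replicate 2, the ASA library with the most alpha-globin, 10 of the 19 genes had their lowest ASA value, Mki67 among them, and 7 their highest. Ube2c, a ubiquitin-conjugating enzyme of mitosis, was at 31.4 RPKM there against 9.77 and 11.0 RPKM in ASA replicates 1 and 3. The part of proliferation in the alpha-globin values was not tested.

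**Figure D5:**
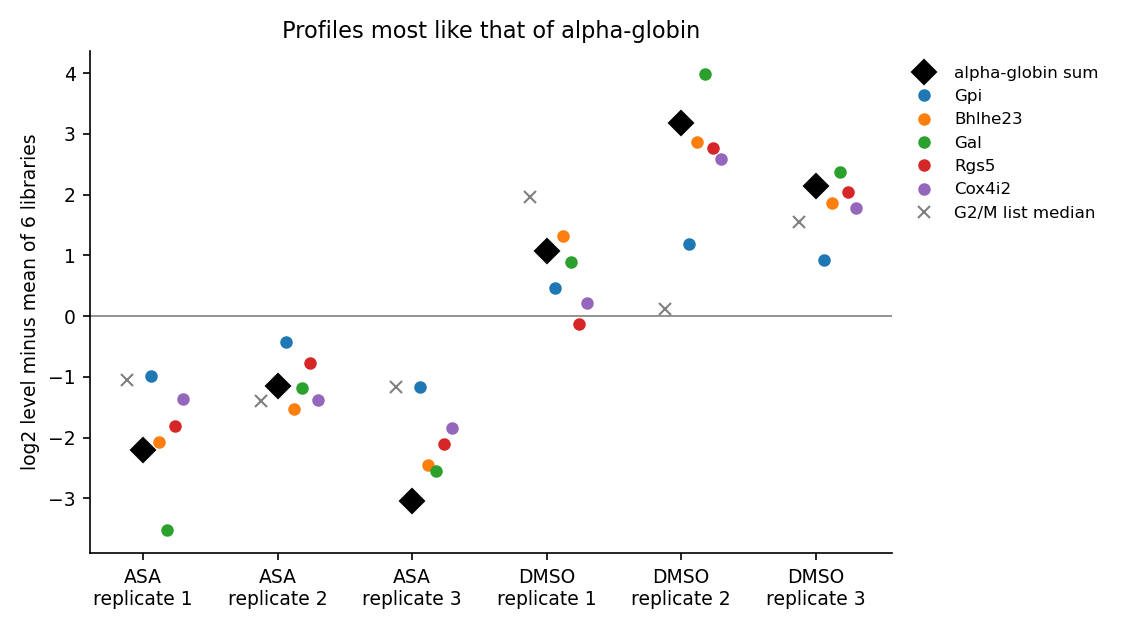
Log2 level minus the mean of the 6 libraries for summed alpha-globin (black diamonds), 5 genes of like profile (coloured points) and the median of the G2/M list (grey crosses). Alpha-globin, Bhlhe23 and Gal are highest in DMSO replicate 2, where the G2/M median is at its lowest among the DMSO libraries.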

How the data were processed

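The members and the gene lists were chosen with earlier results of these data known. Per the labels' protocols, total RNA was made into directional libraries of polyadenylated RNA. TopHat2 2.1.0, Bowtie2, edgeR 3.26.8, Trim Galore 0.4.1, cutadapt 1.14 and the build Rnor_6.0 are named in the submitters' processing notes. How reads were counted, whether by strand, and how multiply mapped reads were treated is not given in the sources used here. Values deposited by the authors are log2 RPKM per exon and library.

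The log was undone and a constant of 0.00292 reads per 1000000 removed. What remained was a whole number of reads (tolerance 0.02 read) for 95.7% to 96.8% of a library's exons. Gene values are reads over summed listed exon length. Since log2 values are no counts, limma 3.58.1 (trend, two-sided) was run on log2(RPKM + 0.1) for 12502 genes with a mean of at least 0.5 RPKM, ASA against DMSO, Benjamini-Hochberg adjusted, and checked on simulated data. A symbol on several identifiers (29 symbols) was represented by the highest. Named were the erythroid markers, the neighbours, called list members, up to 4 others per list by smallest p, and by likeness the 6 highest r and 4 smallest differences. Alas1, Fech, Hmox1, Tfrc, Nfe2, Prl, Pou1f1, Mki67, Ube2c, Cd14 and Fcer1g were added after their values were seen, as were the list sums without Car2 or Cd68. Alternatives were other pseudocounts, filters, scaling, exon summary, variance models and left-out libraries.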

Additional observations from a re-analysis of the deposited data

How the results depend on the processing

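The alpha-globin sum was 13.3-fold to 27.6-fold lower in ASA libraries (log2 -4.79 to -3.73) over the 6 fits that left out a library. It was 18.7-fold lower without both libraries numbered 2, and lower under every other alternative run. The genes were chosen on this contrast and the groups did not overlap. Leaving out libraries or changing the pseudocount thus could not change the direction, only the size. The Hba-a2 share of alpha-globin reads, 4.69% in ASA and 6.90% in DMSO libraries, was 15.9% and 28.3% from the last exon alone and 13.9% and 19.8% from RPKM, since these weigh the copies by like length. No share could be had from the first and second exons, which are listed for Hba-a3 only. The 1400 calls over all genes became 0 to 2617 when a library was left out (0 without ASA replicate 3 or DMSO replicate 3, with 2926 and 2345 genes at an unadjusted p under 0.05) and 3153 without both libraries numbered 2. Over the same fits, called haem synthesis genes numbered 0 to 2, haem and iron handling genes 0 to 5, globin regulators 0 to 3, neighbours 0 to 4, erythroid markers 0 to 3 and G2/M genes 0 to 18. Without both libraries numbered 2 these counts were 2, 8, 3, 3, 4 and 19. When the median exon stood for the gene, 0 globin regulators, 0 neighbours and 1 erythroid marker passed (948 genes in all), and without a variance trend 1 globin regulator passed. The cause was not tested. The added settings, the erythroid marker and G2/M counts and the exon shares without single libraries were chosen after seeing the data. No paired analysis was possible because the labels give the libraries no numbers shared between the groups. The replicate numbers used here are only their order within each group. Depth limits the Hba-a2 value in ASA replicate 3 (2 reads).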
